A study of Mus musculus with 3 samples.

Results

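The cells described here are barcodes of mouse submandibular salivary gland organoids that carried at least 3 UMIs, summed over Msln, Sncg and Ctla2a, in single-cell RNA-seq libraries. A UMI, or unique molecular identifier, is a tag that lets each captured transcript be counted once. A barcode was kept if 500 or more genes were detected in it and mitochondrial transcripts made up no more than 20% of its UMIs. The cells were chosen by these measured UMI sums, and 963 of 42216 kept barcodes, 2.28%, met the rule. The other 41253 kept barcodes of the same libraries were the comparison.

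Msln encodes mesothelin, a GPI-anchored surface glycoprotein best known from the mesothelium and from several carcinomas. Sncg encodes gamma-synuclein, the synuclein that is also made by epithelial tumours, and Ctla2a encodes a small inhibitor of cathepsin-like cysteine proteases that resembles a cathepsin propeptide. Salivary ducts hold luminal cells, which line the lumen and carry the simple keratins Krt7, Krt8, Krt18 and Krt19, and basal cells, which carry Krt5, Krt14, Krt15 and the transcription factor Trp63. Basp1, a membrane-bound protein first studied in neuronal growth cones, and Cryab, a small heat shock chaperone, had been given as further markers of these cells.

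The study compared organoids irradiated with 7 Gy protons, in the plateau region of the beam, organoids irradiated with 7 Gy photons and unirradiated controls. Organoids came from 4 C57BL/6 mice aged 8 to 12 weeks and grew in Matrigel in medium with EGF, FGF2, insulin, dexamethasone, the ROCK inhibitor Y27632, R-spondin1 and Wnt3a; all 3 groups shared this medium. Irradiation was on day 5 and collection on day 11, after which trypsin-dissociated cells that excluded propidium iodide were sorted for 10x 3' libraries. Each group was 1 library, with the mice not separable, so the spread between groups has no replicate and no p-value is given between them.

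The proton, photon and control libraries held 13956, 15041 and 13219 kept barcodes. The summed UMIs of the barcodes meeting the rule were 1224678, 2756901 and 824648 in these libraries, against 35468261, 44180094 and 38690120 in the remaining barcodes. The median barcode meeting the rule had 4296, 4535 and 5173 UMIs, against 2198, 2754 and 2743 in the remaining barcodes, so the rule picked deeper barcodes in every library. Between 49 and 56 kept barcode sequences were shared by each pair of libraries, and no barcode sequence met the rule in more than 1 library. Doublets were not removed; 25.3%, 22.1% and 28.9% of the barcodes meeting the rule lay above the 95th percentile of UMIs of the proton, photon and control library.

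Upstream sequence of Sncg and of the Ctla2 pair is shown because these genes define the cells and because Ctla2a has a close copy. The RefSeq tables on GRCm38.p6 held 250 bases before the RefSeq start of each gene, all on the minus strand, and they are given whole for Ctla2a (chr13:60936626-60936875) and Ctla2b (chr13:60897448-60897697). The RefSeq start of Sncg lies 120 bases inside the gene as GENCODE vM21 annotates it, so for Sncg the 130 bases before both starts are given (chr14:34374790-34374919). They are printed 5′ to 3′ in lower case, with capitals marking matches to a TATA box (TATAAA) or an AP-1 motif (TGACTCA).
Sncg: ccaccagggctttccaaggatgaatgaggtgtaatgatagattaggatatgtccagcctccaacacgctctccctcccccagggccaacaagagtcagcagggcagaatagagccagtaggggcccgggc
Ctla2a: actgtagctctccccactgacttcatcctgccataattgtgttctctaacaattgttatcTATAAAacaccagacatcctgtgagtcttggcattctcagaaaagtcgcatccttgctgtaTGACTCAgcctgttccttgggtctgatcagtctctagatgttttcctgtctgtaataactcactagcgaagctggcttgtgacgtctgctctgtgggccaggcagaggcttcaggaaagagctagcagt
Ctla2b: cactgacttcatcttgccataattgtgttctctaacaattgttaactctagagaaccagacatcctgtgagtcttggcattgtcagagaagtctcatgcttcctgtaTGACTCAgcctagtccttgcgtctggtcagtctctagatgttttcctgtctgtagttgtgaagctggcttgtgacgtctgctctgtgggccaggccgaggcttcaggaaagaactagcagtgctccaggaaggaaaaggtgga
Over a window that also holds the 50 bases after the start, Ctla2a and Ctla2b were 79.5% identical, with gaps counted as differences. The alignment held 256 identical bases, 22 mismatches and 44 gaps. Both held TGACTCA, at -129 and -143 from the start, and Ctla2a alone held TATAAA, at -190. Searched on both strands, TGACTCA occurred in 5.20% and TATAAA in 13.6% of 32851 promoter windows of the same length, and neither motif, nor the TEAD motif GGAATG, was found in the Sncg window, which was taken from the RefSeq start. These matches describe letters in a window and not a binding site.

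The 3 rule genes lie on different chromosomes in the GENCODE vM21 annotation of GRCm38. Msln spans chr17:25748613-25754378, Sncg chr14:34370274-34374789 and Ctla2a chr13:60934155-60936625, all on the minus strand. Of the 50-base stretches of Ctla2a transcripts, 25.5% also occur in other genes, most often Gm49391, so that part of the Ctla2a count may belong to a copy or have been lost. Its neighbour Ctla2b had fewer counts, at 6.54, 11.6 and 3.64 CPM in the proton, photon and control barcodes meeting the rule, against 1.52, 2.20 and 2.02 CPM in the remaining barcodes. Of the 50-base stretches of Ctla2b 69.0% occur in other genes, also most often Gm49391, so its count is more uncertain still. CPM is UMIs per 1000000 UMIs of a summed group of barcodes.

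The rule chose the barcodes by these values, which are therefore a description. A Msln UMI was present in 57.1%, 64.0% and 61.1% of the proton, photon and control barcodes meeting the rule. A Sncg UMI was present in 77.8%, 66.9% and 67.1% of them, and a Ctla2a UMI in 16.9%, 19.9% and 12.1%. Sncg was therefore the gene most often seen, and Ctla2a the least often, in each library. Msln and Sncg together were found in 35.6%, 33.5% and 30.2% of the barcodes, and all 3 genes in 12, 33 and 2 barcodes. Most barcodes thus lacked 1 of the genes Msln and Sncg, and the barcodes are called here by their rule, as Msln/Sncg/Ctla2a barcodes.

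The cut at 3 UMIs is a point on a continuous range. In the proton, photon and control libraries, 135, 242 and 80 barcodes stood at exactly 3 UMIs, or 51.7%, 43.8% and 53.7% of those meeting the rule, and 338, 519 and 218 barcodes stood just outside it at 2 UMIs. Krt8 had 572, 641 and 414 CPM in barcodes at 3 UMIs, against 606, 737 and 414 CPM at 2 UMIs. Cryab had 159, 169 and 324 CPM at 3 UMIs, against 159, 191 and 238 CPM at 2 UMIs. Krt8 was equal or lower just inside the cut, and Cryab was higher just inside it only in the control. At the far end, 5, 22 and 7 barcodes had 10 or more UMIs, and the highest sums were 24, 33 and 18.

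The rule genes were not confined to the chosen barcodes. Of all Msln UMIs of the proton, photon and control libraries, 36.8%, 52.6% and 35.8% lay in Msln/Sncg/Ctla2a barcodes, and of all Sncg UMIs 37.0%, 46.6% and 34.2%. Msln was at 332, 388 and 345 CPM in the chosen barcodes, against 19.7, 21.8 and 13.2 CPM in the rest. Free RNA in the droplets can add single UMIs to cells that do not express a gene, and no cell type known to lack Msln or Sncg was available to measure that background in these organoids.

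Irradiated libraries held a larger share of Msln/Sncg/Ctla2a barcodes than the control, and the photon library the largest. They were 261 of 13956 proton barcodes, or 1.87% (exact Clopper-Pearson 95% interval 1.65 to 2.11). In the photon library they were 553 of 15041, or 3.68% (3.38 to 3.99), and in the control library 149 of 13219, or 1.13% (0.954 to 1.32). The share was 1.66 times the control share after protons and 3.26 times after photons, and the 3 intervals did not overlap. The order proton below photon and above control was also found after each barcode was thinned to 2000 UMIs, where the shares were 0.806% (0.621 to 1.03), 1.35% (1.14 to 1.58) and 0.385% (0.271 to 0.530). Without the deepest 5% of barcodes of each library the shares were 1.47%, 3.02% and 0.844%. The intervals cover counting error only, and treatment cannot be told apart from any other difference between the 3 libraries.

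**Figure D1:**
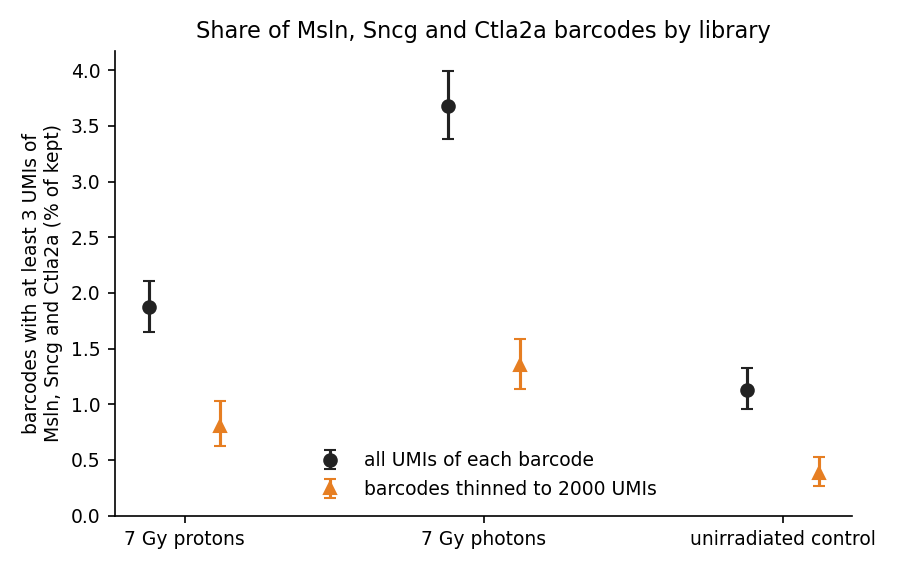
Share of kept barcodes with at least 3 UMIs of Msln, Sncg and Ctla2a (percent, vertical axis) in the proton, photon and control libraries, with all UMIs (circles) and after thinning to 2000 UMIs (triangles). Bars are exact 95% binomial intervals; the photon share is the highest on both scales, at 3.68% and 1.35%.

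The whole libraries showed the same order for each rule gene. Msln had 30.1 and 43.3 CPM in the proton and photon libraries, against 20.1 CPM in the control. Sncg had 44.0 and 51.2 CPM, against 22.6 CPM in the control. Ctla2a had 6.41 and 11.0 CPM, against 2.63 CPM in the control. Ctla2a showed the largest ratio to control, 2.43 after protons (95% Poisson interval 1.92 to 3.10) and 4.19 after photons (3.38 to 5.22). The Msln ratios were 1.5 (1.37 to 1.64) and 2.16 (1.98 to 2.34). More cells carrying a transcript and more transcript per cell cannot be told apart in these sums.

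The rule genes tended to occur in the same barcodes. At 2000 UMIs, Msln was detected in 9.42%, 11.2% and 7.65% of proton, photon and control barcodes with a Sncg UMI, against 4.68%, 5.72% and 2.63% of those without one. With a Ctla2a UMI present, Msln was detected in 16.1%, 21.4% and 12.2%, against 4.88%, 5.90% and 2.76% without one. Msln was therefore seen more often with Ctla2a than with Sncg in every library, but the 95% intervals overlapped in the proton and control libraries. The control share with Ctla2a rested on 5 of 41 barcodes. Ctla2a was detected in 3.26%, 2.46% and 1.53% of barcodes with a Sncg UMI, against 1.02%, 1.33% and 0.387% of those without one. For this pair the 95% intervals overlapped in the photon and control libraries. Cryab, which the rule did not use, was detected in 25.1%, 31.9% and 29.0% of barcodes with a Msln UMI, against 10.7%, 14.1% and 14.2% of those without. With Sncg in place of Msln, the Cryab shares were 16.5%, 20.4% and 21.1%, against 11.1%, 14.8% and 14.4%. Basp1 was detected in 2.76%, 9.90% and 4.46% of barcodes with a Msln UMI, against 2.00%, 2.64% and 0.695% of those without, with overlapping 95% intervals in the proton library. With Sncg in place of Msln the Basp1 shares were 3.8%, 5.90% and 1.22%, against 1.91%, 2.86% and 0.786%, with overlapping intervals in the control. Basp1 was detected in 8.60%, 17.5% and 12.2% of barcodes with a Ctla2a UMI, against 1.96%, 2.88% and 0.752% of those without. Barcodes of 1 library share their culture and are not replicates, so these shares carry no test.

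Both markers outside the rule were higher in Msln/Sncg/Ctla2a barcodes. Basp1 had 44.1, 67.5 and 31.6 CPM in the proton, photon and control barcodes, against 10.1, 17.8 and 5.82 CPM in the rest. Cryab had 183, 264 and 317 CPM, against 69.5, 106 and 99.9 CPM in the rest. For both genes the lowest value of the chosen barcodes lay above the highest value of the rest. They were given as markers with results of these data known, so their differences, 2.06 and 1.45 on the log2 scale, are a description. Against remaining barcodes of like depth the differences were 1.19 and 1.17.

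The barcodes carried the epithelial adhesion gene Epcam, at 889, 1673 and 1661 CPM, against 679, 1407 and 1194 CPM in the rest, and lacked most defining genes of the tissues for which the rule genes are best known. Of 9 mesothelial markers, 7 were at 0 in all 3 libraries, among them Wt1, Upk3b and Calb2; the summed list had 5.72, 10.2 and 2.43 CPM in the proton, photon and control barcodes, against 3.13, 1.83 and 2.25 CPM in the rest, and nearly all of it was Muc16, with 7, 27 and 2 UMIs. All 6 T cell markers, including Cd3e and Trac, were at 0, as were 5 of 7 markers of other immune cells, including Ptprc. The sum over the other immune markers was 5.72, 7.99 and 1.21 CPM, against 3.10, 2.42 and 1.99 CPM in the rest. In the photon library it rested on 22 UMIs, of which 20 were of Cd74, the class II invariant chain gene, and its ratio to the rest was 3.30 (95% Poisson interval 1.98 to 5.25), or 6.53 (2.97 to 15.4) to the rest of like depth. Of 8 neuronal markers 4 were at 0, including Tubb3, and their sum was 1.63, 1.09 and 9.71 CPM, against 1.72, 1.45 and 2.74 CPM in the rest. In the control library the neuronal sum rested on 8 UMIs, at least 7 of them of Stmn2. Its ratio to the rest there was 3.54 (1.49 to 7.24), or 2.40 (0.822 to 6.75) to the rest of like depth. Of the fibroblast markers 5 of 7 were at 0, including Pdgfra and Dcn, with a sum of 2.45, 1.09 and 1.21 CPM, against 0.705, 0.996 and 1.34 CPM in the rest. Of the acinar markers 7 of 10 were at 0, including Smgc, with a sum of 40.9, 21.4 and 24.3 CPM, against 48.6, 42.6 and 58.9 CPM. A count of 0 allows up to 2.45, 1.09 and 3.64 CPM in the proton, photon and control barcodes, for counting error only.

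Across barcodes with at least 2000 UMIs, detection of Msln climbed with the number of luminal keratin UMIs. These were 7939 of 13956 kept proton barcodes, 10891 of 15041 photon and 9620 of 13219 control barcodes. After thinning to 2000 UMIs, a Msln UMI was found in 12.6%, 13.3% and 7.87% of proton, photon and control barcodes with 10 or more UMIs of Krt7, Krt8, Krt18 and Krt19, against 2.03%, 1.71% and 1.73% of those with 0 to 1. Sncg was found in 10.6%, 10.0% and 3.69% at the high end, against 4.69%, 3.81% and 2.30% at the low end. Ctla2a was found in 2.10%, 2.84% and 0.803%, against 0.317%, 0.502% and 0.384%. The gap in percentage points was largest for Msln, and for Sncg in the control the end values lay close together. These shares differ between barcodes of equal depth within 1 library.

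**Figure D2:**
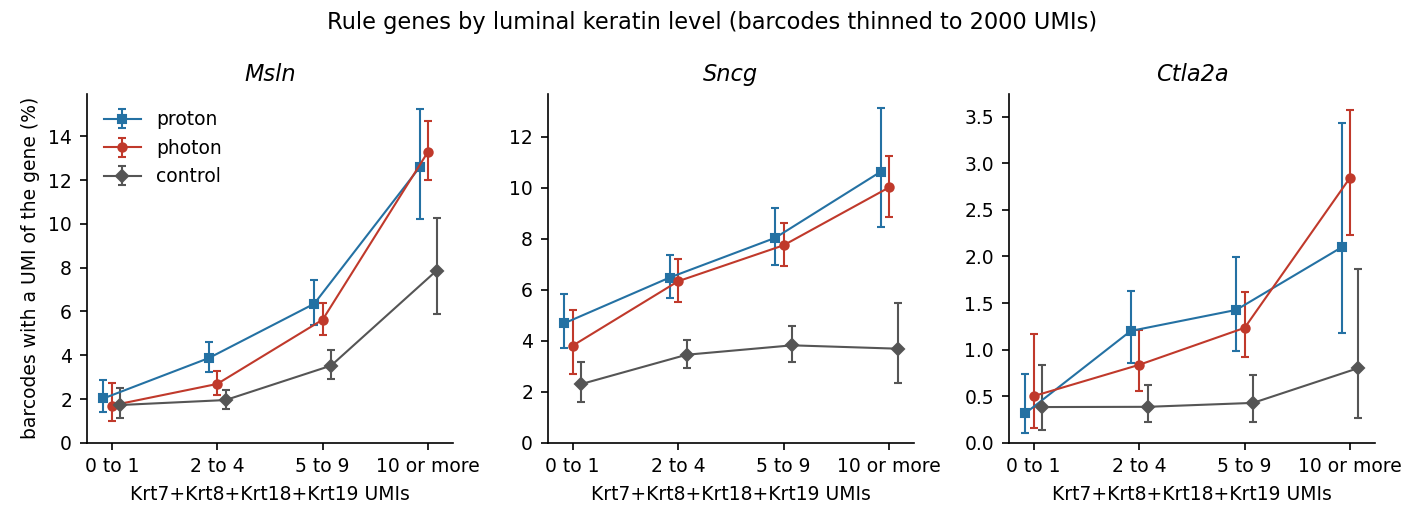
Share of barcodes with a UMI of Msln, Sncg or Ctla2a (percent, vertical axes) by the summed UMIs of Krt7, Krt8, Krt18 and Krt19 (horizontal axes), after thinning to 2000 UMIs, in the proton, photon and control libraries. Bars are exact 95% binomial intervals; the Msln share in the highest class is 12.6% and 13.3% in the irradiated libraries and 7.87% in the control.

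Of the 4 luminal keratins, 3 were higher in Msln/Sncg/Ctla2a barcodes than in the rest of the same library. Krt8, a simple keratin that pairs with Krt18, had 717, 856 and 535 CPM in the proton, photon and control barcodes, against 355, 409 and 217 CPM in the rest. The groups did not overlap, and the log2 fold change was 1.12 ± 0.07 (edgeR's quasi-likelihood test with Benjamini-Hochberg adjustment, adjusted p = 3.75e-10). For log2 fold changes the value after ± is an SE worked back from edgeR's moderated test statistic. It is not the spread of the 3 libraries. Krt18 had 1311, 2272 and 1574 CPM, against 699, 1239 and 873 CPM in the rest, also without overlap, with a log2 fold change of 0.88 ± 0.06 (edgeR adjusted p = 1.02e-09). Krt7 had 1454, 2355 and 1403 CPM, against 986, 1607 and 984 CPM in the rest. Its groups overlapped through the photon rest, but it was higher within every library, by 0.54 ± 0.06 on the log2 scale (edgeR adjusted p = 1.1e-06). Krt19 had 47.4, 77.7 and 38.8 CPM, against 43.0, 63.5 and 46.2 CPM in the rest, and the values overlapped, with a log2 difference of 0.16 ± 0.11 (edgeR adjusted p = 0.401).

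The difference in the keratins was smaller against remaining barcodes of like depth, 3 for each Msln/Sncg/Ctla2a barcode. There Krt8 differed by 0.68, Krt18 by 0.65 and Krt7 by 0.32 on the log2 scale (edgeR adjusted p = 4.66e-06, 1.05e-07 and 0.000215), and Krt19 by -0.14 (adjusted p = 0.683). Per barcode at 2000 UMIs, the median luminal keratin sum was 6, 9 and 6 UMIs in the proton, photon and control barcodes, against 3, 5 and 4 UMIs in the rest. The median basal keratin sum was 4, 8 and 10 UMIs, against 5, 11 and 10 UMIs in the rest. At least 5 UMIs of each kind were present in 25.9%, 66.0% and 46.3%, against 19.0%, 45.5% and 31.0% of the rest. Many of these barcodes therefore carried luminal and basal keratins together, and the part of doublets in this was not tested. Of the 50-base stretches of Krt8 transcripts, 26.9% also occur in the pseudogene Krt8-ps.

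Over all genes the test had 8046 genes, of which 573 (7.12%) were higher and 611 (7.59%) lower in Msln/Sncg/Ctla2a barcodes, or 1184 (14.7%) in all, at an edgeR adjusted p under 0.05; the median log2 fold change over all tested genes was 0.00. Against the remaining barcodes of like depth, 243 (3.02%) were higher and 241 (3%) lower, or 484 (6.02%) in all. Without the photon library, which holds the most of these barcodes, 261 were higher and 277 lower. The p-values set a difference against a spread that edgeR moderates over all genes, across 3 libraries that differ in treatment. They do not measure how even the difference was, and some genes passed with uneven libraries, such as Clca3a2 below.

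The gene with the largest rise was Klra4, a receptor gene of the Ly49 family known from natural killer cells. It had 98.9, 138 and 64.3 CPM in the proton, photon and control barcodes, against 29.7, 32.8 and 10.5 CPM in the rest. The groups did not overlap, and the log2 fold change was 2.06 ± 0.13 (SE; edgeR adjusted p = 3.23e-10). Against the rest of like depth Klra4 rose by 1.48. No T cell marker and no Ptprc UMI was found beside it, and 4.68% of the 50-base stretches of its transcripts occur in other genes.

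Other genes were named by their fold. Fn1, which encodes the matrix protein fibronectin, had 208, 115 and 223 CPM, against 63.3, 46.4 and 38.6 CPM in the rest, a log2 fold change of 1.80 ± 0.14 (edgeR adjusted p = 1.05e-08). Igfbp7, a secreted binding protein, had 353, 557 and 735 CPM, against 132, 199 and 160.3 CPM, and rose by 1.70 ± 0.10 (edgeR adjusted p = 3.23e-10). Adam12, a membrane metalloprotease, had 187, 99.1 and 124 CPM, against 83.7, 37.8 and 27.0 CPM, and rose by 1.48 ± 0.13 (edgeR adjusted p = 5.54e-08). None of these 3 genes had overlapping groups, and each ratio was widest in the control library. Fn1, Igfbp7 and Adam12 rose by 1.26, 1.38 and 1.26 against the rest of like depth. Mal, a raft protein of apical transport in epithelia, had 99.7, 108 and 107 CPM, against 32.2, 46.3 and 32.5 CPM, and rose by 1.47 ± 0.11 (edgeR adjusted p = 2.9e-09). The tetraspanin-like gene Tm4sf1 and the tetraspanin gene Tspan1 rose by 1.42 ± 0.12 and 1.40 ± 0.13 (edgeR adjusted p = 5.54e-08 and 1.68e-07). Mal, Tm4sf1 and Tspan1 rose by 0.77, 0.73 and 0.80 against the rest of like depth. The protocadherin Pcdh9 and the cystatin Cst6, another inhibitor of cathepsin-like proteases, rose by 1.37 ± 0.11 and 1.23 ± 0.11 (edgeR adjusted p = 3.02e-08 and 5.54e-08), higher within every library while the groups overlapped across libraries. Pcdh9 and Cst6 rose by 1.43 and 0.98 against the rest of like depth.

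The intermediate filament gene Vim, common in mesenchymal and migrating cells, had 79.3, 143 and 32.8 CPM, against 35.2, 58.1 and 8.53 CPM in the rest. Lgals1, which encodes galectin-1, had 498, 403 and 212 CPM, against 237, 206 and 48.9 CPM. Both were higher within every library while the groups overlapped across libraries, with log2 fold changes of 1.32 ± 0.11 and 1.26 ± 0.13 (edgeR adjusted p = 4.82e-08 and 4.21e-07). They were 0.61 and 0.67 against the rest of like depth. Of 13 mesenchymal and motility genes listed, 8 passed the count filter, and 5 of these rose and 1 fell, with a median log2 fold change of 0.68. S100a6 and Itga3 were the others that rose; S100a6 reached 14945, 14160.1 and 8517 CPM, against 9185, 8578 and 3977 CPM. Snai2, a repressor of epithelial genes, fell by 0.77 on the log2 scale, with 27.8, 43.9 and 54.6 CPM, against 51.5, 70.1 and 99.4 CPM. Against the rest of like depth, 4 of the 8 rose and 1 fell. The Itga3 call was lost there and with DESeq2 (adjusted p = 0.555 and 0.112).

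**Figure D3:**
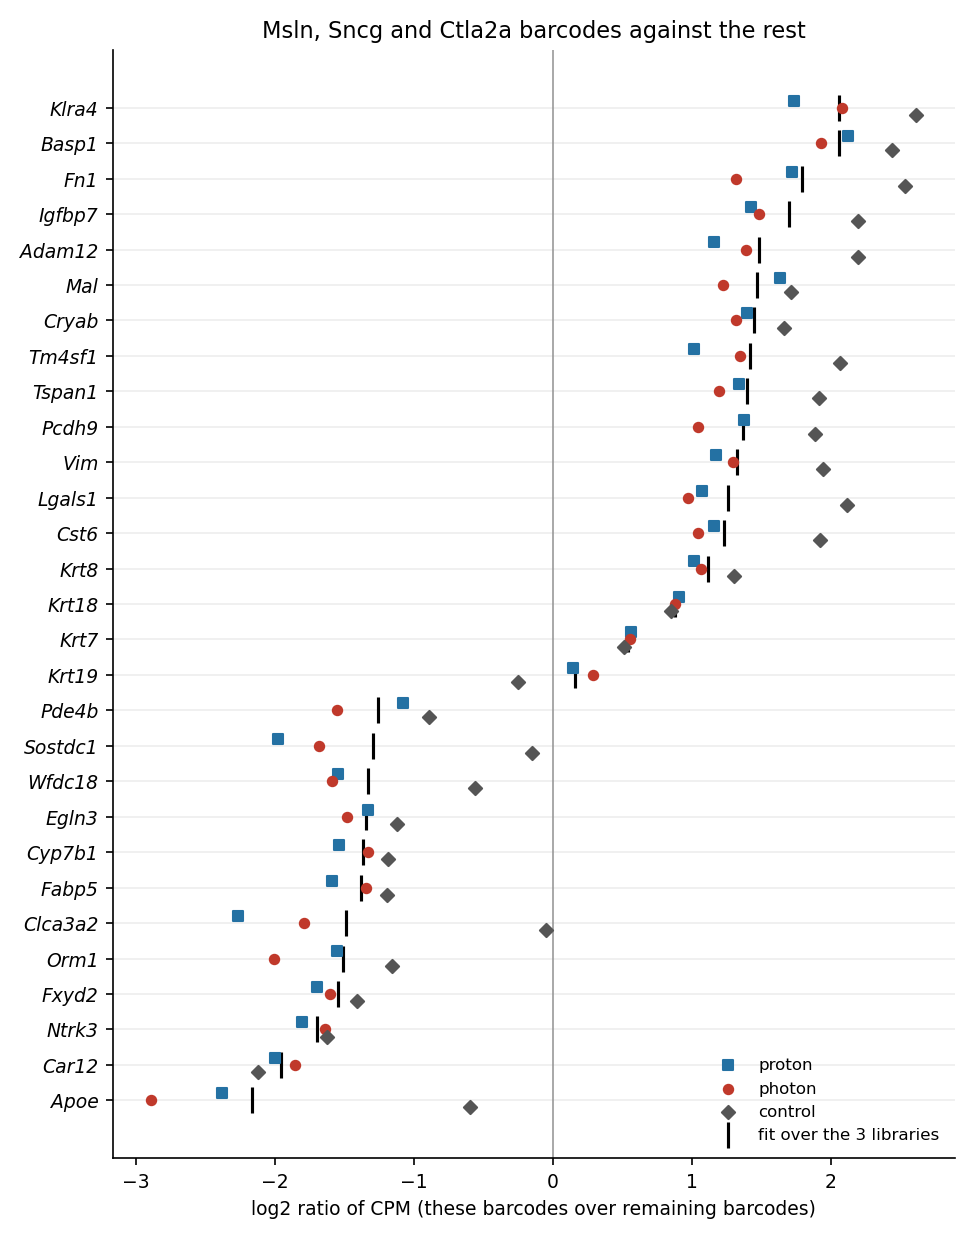
Log2 ratio of CPM in Msln/Sncg/Ctla2a barcodes over the remaining barcodes (horizontal axis) for the genes named by rule, Basp1, Cryab and the luminal keratins (rows), in the proton (squares), photon (circles) and control (diamonds) libraries, with the value fitted over the 3 libraries as a black bar. Klra4 stands at 2.06 and Apoe at -2.16, and the control ratio of Clca3a2 and Sostdc1 lies near 0.

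Among genes that fell, the nerve growth factor family receptor Ntrk3 and the fatty acid binding protein Fabp5 had differences of like size in all 3 libraries. Ntrk3 had 85.8, 45.4 and 92.2 CPM in the proton, photon and control barcodes, against 299, 142 and 285 CPM in the rest, and Fabp5 had 846, 1480.2 and 734 CPM, against 2547, 3767 and 1677 CPM. Neither gene had overlapping groups, and they fell by 1.69 and 1.38 on the log2 scale (edgeR adjusted p = 4.75e-11 and 4.75e-11). Against the rest of like depth the log2 fold changes of Ntrk3 and Fabp5 were -1.16 and -1.84. Car12, a carbonic anhydrase, had 15.5, 16.7 and 23.1 CPM, against 62.1, 60.4 and 100.4 CPM, and fell by 1.95 (edgeR adjusted p = 1.8e-09). Fxyd2, a regulator of the sodium pump, had 20.4, 39.9 and 71.6 CPM, against 66.1, 121 and 189.7 CPM, and fell by 1.55 (edgeR adjusted p = 1.8e-09), or by 0.93 against the rest of like depth.

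The lipid carrier Apoe had the largest fall, but not evenly. It had 8.99, 11.3 and 32.8 CPM, against 46.7, 83.4 and 49.6 CPM in the rest, a log2 fold change of -2.16 ± 0.24 (edgeR adjusted p = 1.53e-06). The SD of its log2 ratio over the 3 libraries was 1.20. The gap was wide in both irradiated libraries and narrow in the control, where the ratio was 0.661. Clca3a2, a chloride channel accessory gene, had 16.3, 23.2 and 44.9 CPM, against 78.6, 80.3 and 46.4 CPM, and Sostdc1, a secreted BMP and Wnt antagonist, had 22.9, 86.4 and 110.4 CPM, against 90.1, 277 and 122 CPM. Their control ratios were 0.968 and 0.903, and both calls were lost with DESeq2 (adjusted p = 0.251 and 0.169) though not with edgeR (adjusted p = 3.68e-05 and 3.11e-05). Of the 50-base stretches of Clca3a2, 24.1% occur in other genes, chiefly Clca3a1. Orm1, an acute phase protein gene whose copy is Orm2, the whey-acidic-protein gene Wfdc18, the oxysterol hydroxylase Cyp7b1, the prolyl hydroxylase Egln3 and the phosphodiesterase Pde4b fell by between 1.26 and 1.51 on the log2 scale, each in all 3 libraries.

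More luminal duct genes rose than fell, and basal duct genes fell or did not pass. Of 11 luminal duct genes tested beyond the keratins, 6 rose and 2 fell (median log2 fold change 0.31). Of 3 tight junction claudin genes on the list, Cldn3 and Cldn7 rose and Cldn4 did not pass, with a log2 difference of -0.03 ± 0.09. Cldn3 was at 46.6, 81.0 and 81.3 CPM, against 28.9, 44.3 and 40.0 CPM in the rest, and Cldn7 at 132, 257 and 175 CPM, against 89.9, 143 and 108 CPM. The tetraspanin gene Tspan8, the antiprotease gene Slpi, the membrane linker gene Ezr and the adhesion gene Epcam also rose, while the epithelial transcription factors Elf3 and Ehf fell by 0.52 and 0.23 on the log2 scale. Against the rest of like depth 4 rose and 1 fell, with a median of only 0.07, and Slpi, Ezr and Ehf did not pass. With DESeq2 Ezr, Elf3 and Ehf did not pass (adjusted p = 0.0768, 0.287 and 0.0863).

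Of 10 basal duct genes tested, none rose and 6 fell, with a median of -0.40 (0 and 8 against the rest of like depth). Trp63, the transcription factor that maintains basal cells, had 88.3, 50.5 and 95.9 CPM, against 158, 109.6 and 181 CPM in the rest (log2 fold change -0.97 ± 0.09, edgeR adjusted p = 2.16e-07), with no overlap between groups. Krt5 had 512, 719 and 766 CPM, against 780.4, 1074 and 947 CPM, and the hemidesmosome genes Dst, Itga6 and Col17a1 fell with it by 0.80, 0.44 and 0.62 on the log2 scale. Krt14 and Krt17 did not pass the test, with log2 differences of -0.18 ± 0.09 and -0.12 ± 0.07. Of 8 squamous genes tested, none rose and 5 fell (Krt6a, Krt13, Sprr1a, Sprr1b and Lgals7), and Lgals7 had 56.4, 86.8 and 103 CPM, against 186, 306 and 93.7 CPM, with the control pair in the opposite order. The Lgals7 call was lost with DESeq2 (adjusted p = 0.303). Against the rest of like depth 7 fell, among them Krt6a and Krt13 by 1.46 and 2.23 on the log2 scale, beside 0.53 and 0.77 against the whole rest.

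Several genes of the p53 response and of the type I interferon response were higher. Against the rest of like depth 6 of 14 p53 targets tested rose and none fell, and 7 of 14 interferon-response genes tested rose and none fell. Over all tested genes, 3.02% rose there and 7.12% rose against the whole rest. Of 14 p53 targets tested 5 rose and 1 fell (median 0.25). The cell cycle inhibitor gene Cdkn1a had 311, 439 and 323 CPM, against 182, 308 and 155 CPM in the rest, and Mdm2, which encodes the ligase that degrades p53, had 229.7, 186 and 115 CPM, against 145, 117 and 71.2 CPM. The log2 fold changes were 0.75 ± 0.08 and 0.67 ± 0.08 (edgeR adjusted p = 1.81e-06 and 2.54e-06). Ccng1, Bax and Zmat3 also rose and Btg2 fell; DESeq2 did not call Zmat3 (adjusted p = 0.100), and Btg2 did not pass against the rest of like depth. Of 23 interferon-response genes listed, 14 passed the count filter on these barcodes and were tested. Of these 14, 8 rose and none fell (median 0.35). Bst2, which encodes the membrane protein tetherin, had 1906, 2465 and 221 CPM, against 1361, 1709.6 and 93.6 CPM, and the ubiquitin-like Isg15 had 876, 1695 and 95.9 CPM, against 673, 1240.5 and 48.2 CPM, with log2 fold changes of 0.66 ± 0.09 and 0.50 ± 0.08 (edgeR adjusted p = 3.38e-05 and 0.000245). Both groups ran from low in the control to high in the irradiated libraries, and overlapped. The chemokine gene Ccl5 had 369, 341 and 20.6 CPM, against 201, 139.9 and 0.517 CPM. In the control library this was 17 UMIs among 149 barcodes. DESeq2 did not call Ccl5 or Ddx58 (adjusted p = 0.269 and 0.0781).

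Other gene groups showed few or mixed differences. Of 7 genes known from injured epithelia 5 rose and none fell (Anxa2, Anxa3, Anxa5, Clu and Il33; median 0.26; 4 rose and 1 fell against the rest of like depth), and Clu, which encodes clusterin, had 291, 288 and 267 CPM, against 200.4, 176 and 136 CPM. Among the protein families of the rule genes and markers, 1 of 4 small heat shock genes rose, which was Cryab, 2 of 8 cathepsin and cystatin genes rose (Ctsd and Ctsh) and 2 fell (Cst3 and Ctsc), and 1 of 6 GPI-anchored surface protein genes rose (Bst2) and 2 fell (Ly6d and Ly6c1). Ly6d had 897, 1361 and 2422 CPM, against 1673, 2607 and 4022 CPM, a fall of 0.86 on the log2 scale (edgeR adjusted p = 2.9e-09). The heat shock chaperones Hspa8, Hsp90aa1 and Hsp90ab1 rose, 3 of 9, and of 12 immediate early genes 1 rose (Jund) and 4 fell (Jun, Ier2, Klf6 and Egr1). The Wnt, Notch and YAP list had 4 of 9 higher, among them Ccnd1 at 815, 933 and 498 CPM, against 479, 589.9 and 345 CPM, and Lgr5, a Wnt receptor partner, at 17.2, 14.2 and 15.8 CPM, against 11.9, 9.14 and 6.38 CPM; Ccn1 fell. Of 8 class I antigen presentation genes, B2m and Tapbp rose and none fell. In these groups DESeq2 did not call Anxa3, Anxa5, Ctsc, Ly6c1, Jund, Lgr5, B2m or Tapbp (adjusted p 0.0503 to 0.187). Against the rest of like depth edgeR did not call Il33, Hspa8, Jund, Klf6, Ccn1, Lgr5, B2m or Tapbp (adjusted p 0.0736 to 0.726), so that no immediate early or class I gene rose there.

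Of 12 G2 and M phase genes 1 rose (Plk1); against the rest of like depth Plk1 did not pass and Top2a fell by 0.57. Of 11 S phase genes none passed edgeR's adjusted test in either direction, with 1 at an unadjusted p under 0.05 and none by DESeq2's Wald test. The NF-kB chemokine list also had none of 5 past the threshold, with 1 at an unadjusted p under 0.05 by edgeR and none by DESeq2's Wald test after adjustment, with Lcn2, which encodes a siderophore-binding protein, at 1222, 1568 and 3614 CPM, against 1750.1, 1742 and 2482 CPM, higher only in the control library. Cxcl5 of this list fell by 0.84 against the rest of like depth. Of 9 cholesterol synthesis genes 3 rose, Cyp51 and Idi1 among them, and none did against the rest of like depth. Of 10 glutathione and NRF2 genes 2 rose (Hmox1 and Gclc) and 3 fell (Slc7a11, Gstm1 and Gsta4). Of 6 S100 genes 3 rose, S100a11, S100a13 and S100a14, and none did against the rest of like depth. The acute phase gene Hp rose to 45.8, 164 and 227 CPM, against 43.7, 70.4 and 59.7 CPM. DESeq2 did not call Hp, Plk1, Cyp51, Hmox1 or S100a13 (adjusted p 0.0518 to 0.244), and Gstm1 did not pass against the rest of like depth.

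At equal depth the number of detected genes differed by few genes, and not in 1 direction. After thinning to 2000 UMIs outside the rule genes, the median Msln/Sncg/Ctla2a barcode had 1171.5, 1147 and 1155 genes in the proton, photon and control libraries, against 1151, 1134 and 1176 genes in the rest. The differences were 20.5, 13 and -21 genes, with a mean of 4.17 ± 22.1 (SD, 3 libraries), and 2 libraries lay above 0 and 1 below. An exact two-sided permutation test that flips the sign of each library's difference gave p = 1, where 0.25 is the smallest p it allows. Without thinning the medians were 2033, 2040 and 2221 genes, against 1218, 1436 and 1476 genes in the rest, at the unequal depths given above. Thinning left out 29, 29 and 2 of these barcodes, and 5988, 4121 and 3597 of the rest.

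The Msln/Sncg/Ctla2a barcodes were not uniform, since most carried more of 1 of the genes than of the other. In the proton, photon and control libraries 93, 245 and 64 barcodes had more Msln than Sncg UMIs and are called Msln-led, and 156, 264 and 78 had more Sncg and are called Sncg-led. In 12, 44 and 7 barcodes the genes were tied. Ctla2a, the third rule gene, had 39.9, 110.0 and 37.4 CPM in Msln-led barcodes, against 75.5, 39.9 and 13.1 CPM in Sncg-led barcodes, higher in the Msln-led ones of the photon and control libraries and lower in those of the proton library. This split was made after the data were seen. Of 4879 genes tested, 117 (2.4%) were higher in Msln-led and 122 (2.5%) higher in Sncg-led barcodes, or 239 (4.9%), at an edgeR adjusted p under 0.05, and without the photon library 67 and 55.

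All 4 luminal keratins were higher in Msln-led barcodes. Krt19 had 93.9, 108 and 62.4 CPM in Msln-led barcodes of the proton, photon and control libraries, against 24.3, 51.1 and 15.7 CPM in Sncg-led barcodes. The groups did not overlap, with a log2 fold change of 1.40 ± 0.21 (edgeR adjusted p = 4.63e-06). Krt8 had 919.9, 1107 and 693 CPM, against 621, 557 and 373 CPM, and Krt18 had 1758, 2758 and 2003 CPM, against 1092, 1762 and 1162 CPM. They differed by 0.83 ± 0.09 and 0.71 ± 0.07 on the log2 scale (edgeR adjusted p = 2.13e-09 and 2.21e-10), without overlap for Krt8 and with overlap for Krt18 only where the photon Sncg-led value met the proton Msln-led one. Krt7 differed by 0.47 ± 0.07 (edgeR adjusted p = 3.07e-06). The luminal duct genes Wfdc2, Cldn3, Tspan8 and Ezr, 4 of 10 tested, were higher in Msln-led barcodes as well, and none was higher in Sncg-led ones.

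Ltf, which encodes the secreted iron-binding protein lactoferrin, had the largest difference. It had 174, 154 and 199.5 CPM in Msln-led barcodes, against 63.4, 46.3 and 15.7 CPM in Sncg-led barcodes, with no overlap (log2 fold change 1.90 ± 0.19, edgeR adjusted p = 3.63e-10). Fn1 had 324, 152 and 362 CPM, against 148, 67.1 and 65.3 CPM, and Clu had 380.1, 407 and 414 CPM, against 248, 137 and 109.7 CPM. Cryab had 284, 387 and 404 CPM, against 120.0, 145 and 198 CPM, and Vim had 115, 201 and 47.4 CPM, against 58.0, 82.3 and 15.7 CPM. These 4 genes differed by 1.43 ± 0.15, 1.30 ± 0.13, 1.28 ± 0.11 and 1.23 ± 0.16 on the log2 scale (edgeR adjusted p = 9.34e-10, 5.05e-10, 1.95e-11 and 6.28e-07), each in the same direction in all 3 libraries. The platelet chemokine gene Ppbp, the PCNA-binding factor gene Pclaf, the formin gene Diaph3, Ccl5 and Tm4sf1 were also among the largest differences, as was the proliferation marker Mki67, whose call was lost without the photon library.

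Sncg-led barcodes had more Sprr1a and more of 4 basal duct genes. Sprr1a, a precursor of the cornified envelope, had 345, 543 and 965 CPM in Msln-led barcodes, against 1489, 1113 and 2081 CPM in Sncg-led barcodes, with no overlap (log2 fold change -1.34 ± 0.10, edgeR adjusted p = 8.75e-13). Ly6d had 436, 818 and 1926 CPM, against 1131, 1945 and 3076 CPM, and the calcification inhibitor gene Mgp had 542, 583 and 686 CPM, against 1112, 1038 and 1436 CPM, with log2 fold changes of -1.07 ± 0.08 and -0.96 ± 0.08 (edgeR adjusted p = 9.89e-13 and 5.53e-12). Mgp did not overlap between the groups and Ly6d did. Of 10 basal duct genes, Dst, Itga6, Krt15 and Col17a1 were higher in Sncg-led barcodes and none in Msln-led ones. Krt6a, listed with the squamous genes, ran the other way, at 58.7, 159.5 and 87.3 CPM, against 40.4, 78.3 and 31.3 CPM. Of the cholesterol synthesis genes 6 of 9 were higher in Msln-led barcodes, as were 5 of 10 immediate early genes, 4 of 5 G2 and M phase genes and 3 of 5 S phase genes. In the control library, however, the called G2 and M phase genes Mki67, Top2a, Cdk1 and Hmgb2 had ratios of 1.00, 0.955, 1.15 and 0.772, beside 1.51 to 3.64 in the proton and photon libraries; the difference between libraries was not tested. Median depth was 4195, 4881 and 5519 UMIs in Msln-led barcodes, against 4343, 4274.5 and 4540.5 UMIs in Sncg-led barcodes, and its part in these differences was not tested.

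**Figure D4:**
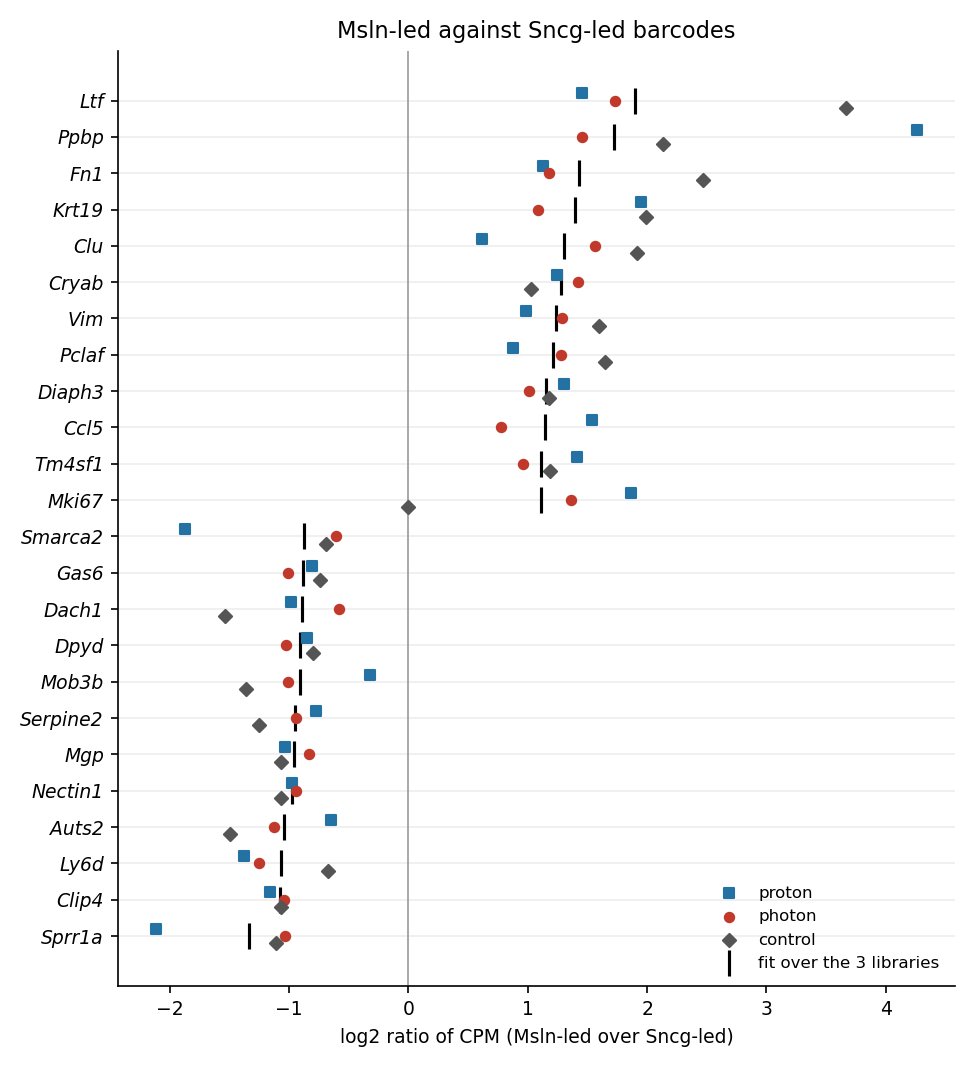
Log2 ratio of CPM in Msln-led over Sncg-led barcodes (horizontal axis) for the 12 highest and 12 lowest genes past the threshold (rows), in the proton (squares), photon (circles) and control (diamonds) libraries, with the value fitted over the 3 libraries as a black bar. Ltf stands at 1.90 and Sprr1a at -1.34; Ccl5 has no control point because it had no UMI in Sncg-led control barcodes.

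Within Msln/Sncg/Ctla2a barcodes the irradiated libraries had their highest ratios to the control in interferon-response genes. A gene was counted as differing at a ratio of at least 1.5 either way with a mean of at least 25 CPM. By this size rule, 1077 of 5887 genes (18.3%) were higher and 1041 (17.7%) lower after protons, and 341 of 5700 (5.98%) were higher and 583 (10.2%) lower after photons. Both comparisons use the same 149 control barcodes, and with 1 library per group there is no test. In the rest, 625 of 5868 genes were higher and 881 lower after protons, and 327 of 5784 were higher and 462 lower after photons.

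All 20 interferon-response genes measured were past the size rule after protons, and all 23 after photons. A gene with almost no control UMIs could reach the minimum mean CPM only through a high irradiated level. Such a gene had to pass, so these counts are fixed in part by the minimum. The summed level of the interferon list was 12.7 times the control after protons (95% Poisson interval 11.8 to 13.7) and 13 times after photons (12.1 to 14). In the remaining barcodes the ratios were 17.6 and 16.3, above both intervals. Isg15 was at 876 and 1695 CPM in proton and photon barcodes, against 95.9 CPM in control barcodes. Ifit3, an interferon-induced gene with tetratricopeptide repeats, had 395 and 1596 UMIs in proton and photon barcodes and 1 UMI in control barcodes, a ratio of 266 (47.5 to 10533) after protons and 477 (85.6 to 18871) after photons. Rsad2, Zbp1, Iigp1 and the class I gene H2-Q7 were among the 6 highest ratios in both comparisons, each with 1 or 2 control UMIs. Of 12 class I presentation genes listed, all 9 measured were higher after each radiation, with summed ratios of 2.97 and 4.33. For class I genes with almost no control UMIs, this count is also fixed in part by the minimum mean CPM.

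The rule genes' own level within the chosen barcodes is fixed in part by the cut, and the other markers went in different directions. Basp1 was at 44.1 and 67.5 CPM in proton and photon barcodes, against 31.6 CPM in control barcodes, ratios of 1.40 (0.861 to 2.33) and 2.14 (1.42 to 3.36). Cryab was at 183 and 264 CPM, against 317 CPM in control barcodes, ratios of 0.578 (0.481 to 0.694) and 0.833 (0.722 to 0.964). The summed luminal keratins stood at 0.994 times the control after protons and 1.57 times after photons, beside 0.983 and 1.56 in the rest, so the keratins differed between libraries as much in the rest as in these barcodes. Fn1 was at 208 and 115 CPM, against 223 CPM in control barcodes, while in the rest it was at 63.3 and 46.4 CPM, against 38.6 CPM. Vim was at 79.3 and 143 CPM, against 32.8 CPM in control barcodes.

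Several groups were lower after irradiation in these barcodes. The NF-kB chemokine list stood at 0.344 (0.325 to 0.364) after protons and 0.471 (0.452 to 0.491) after photons, against 0.638 and 0.732 in the rest, with 5 and 4 of 5 measured genes past the size rule. Lcn2 made up most of it, at 1222 and 1568 CPM in proton and photon barcodes, against 3614 CPM in control barcodes. The basal duct list stood at 0.519 and 0.877, and the immediate early list at 0.409 and 0.934, and both were lower after protons than after photons relative to the control. In the rest the basal duct ratios were 0.634 and 1.08, and the immediate early ratios 0.422 and 0.969, which lay within the intervals of these barcodes (0.382 to 0.438 and 0.890 to 0.980). Of 11 immediate early genes measured 9 were past the size rule after protons and 0 after photons. Jun was at 116 and 453 CPM, against 592 CPM in control barcodes. The aldehyde oxidase gene Aox3 had 5 and 10 UMIs in proton and photon barcodes and 50 in control barcodes, ratios of 0.0673 (0.0210 to 0.168) and 0.0598 (0.0271 to 0.119), and Orm1 had ratios of 0.155 and 0.157.

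Proliferation genes differed between these barcodes and the rest in how they compared with the control. The G2 and M phase list stood at 0.734 (0.647 to 0.833) after protons and 1.5 (1.36 to 1.66) after photons, against 1.77 and 2.82 in the rest. Mki67 was at 29.4 and 41.4 CPM in proton and photon barcodes, against 53.4 CPM in control barcodes, and at 44.6 and 37.1 CPM in the rest, against 10.1 CPM in the control rest. In control barcodes Mki67 rested on 44 UMIs. The cholesterol synthesis list stood at 0.905 and 1.27, against 1.44 and 2.04 in the rest.

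**Figure D5:**
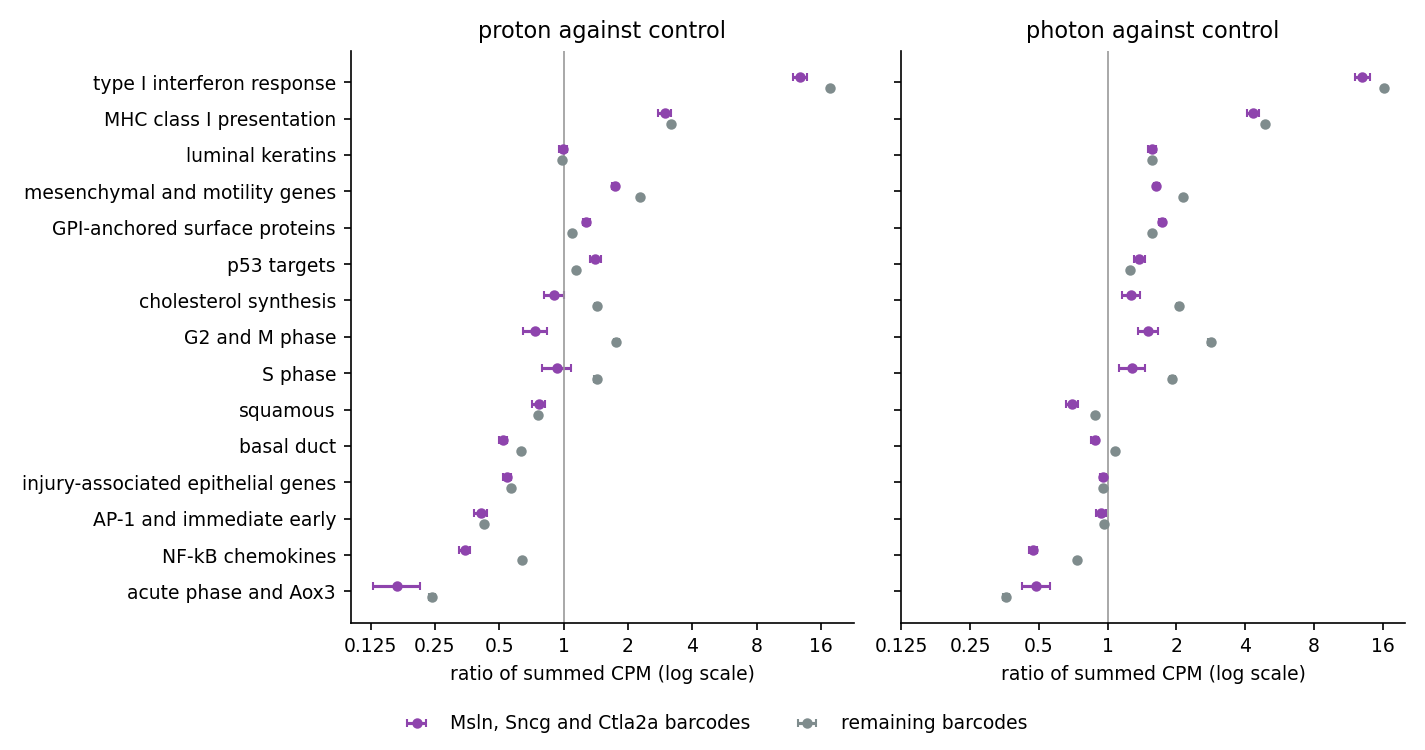
Ratio of the summed CPM of a gene list in irradiated over control barcodes (horizontal axes, log scale), after protons (left) and photons (right), within Msln/Sncg/Ctla2a barcodes (purple) and the remaining barcodes (grey). Bars are 95% Poisson intervals; the interferon list lies at 12.7 and 13 in these barcodes, and the G2 and M phase list at 0.734 and 1.5.

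Between the radiations, 1506 of 5796 genes (26%) were higher and 976 (16.8%) lower in proton than in photon barcodes by the same size rule. Cxcl10, an interferon-induced chemokine, had the lowest ratio, with 15 UMIs in proton barcodes and 478 in photon barcodes, or 0.0706 (0.0392 to 0.118), beside 0.346 in the rest. The chemokine gene Ppbp stood at 0.193 (0.0974 to 0.348) and Fos, an AP-1 subunit, at 0.235 (0.191 to 0.286). The highest ratios were those of the phosphodiesterase Pde3b at 4.10 (2.54 to 6.75), of the mitochondrial leucine tRNA ligase Lars2 at 3.97 (3.24 to 4.88) and of Dock4 at 3.89 (2.56 to 6.00). In the rest Ppbp and Fos stood at 0.366 and 0.271, and Pde3b, Lars2 and Dock4 at 2.60, 4.21 and 2.32. The Wnt ligand gene Wnt7b stood at 3.51 (2.45 to 5.07), beside 1.81 in the rest. The summed luminal keratins were at 0.635 of the photon level and the interferon list at 0.975.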

How the data were processed

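The authors deposited raw UMI counts per gene and barcode for 3 libraries, made with Cell Ranger on mm10. The version is 7.0.1 per the submitters' processing notes and 7.0.0 per the file headers. No source used here names the annotation release, the treatment of intronic reads or the barcode calling. Of 32285 gene IDs, 32158 matched GENCODE vM21.

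From these counts, barcodes with at least 500 genes and at most 20% mitochondrial UMIs were kept. No doublet caller was run. The members, gene lists and markers were chosen with earlier results of these data known. Counts of barcodes meeting the rule and of the rest were summed per library, leaving out Msln, Sncg and Ctla2a. They were compared with edgeR 4.0.16 in R 4.3.3 (TMM, filterByExpr on the barcodes meeting the rule, quasi-likelihood test, library as block, Benjamini-Hochberg threshold 0.05). Pairing by library follows from the design, since both sums come from the same library. Named genes were the 12 highest and 12 lowest fold changes past the threshold, with 1 sign in all libraries and a mean of at least 50 CPM. Genes of the lists could be named as well. Between libraries the 6 highest and 6 lowest CPM ratios with a mean of at least 25 CPM were named. DESeq2 1.42.0, other cuts, depth-matched barcodes and each library left out were alternatives.

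Thinning to 2000 UMIs used a fixed seed. Intervals are exact binomial (Clopper-Pearson) or conditional Poisson at 95%. The test of these barcodes against the rest was also run on simulated data. Of changed genes that passed the count filter, 100% of 74 changed 4-fold and 98.8% of 86 changed 2-fold were recovered. Among 7992 genes, 9 unchanged genes were called. Changed genes that failed the filter were left out of these shares. The simulation used the same fixed spread for every gene and the same change in every library, so it cannot show how the test behaves where libraries differ.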

Additional observations from a re-analysis of the deposited data

Results flagged for a closer look

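Some summed gene lists stood on opposite sides of 1 in different libraries when Msln/Sncg/Ctla2a barcodes were set against the remaining barcodes of the same library. The difference between libraries was not tested in any of these cases, since each group is 1 library. The G2 and M phase list had a ratio of 0.876 in the proton library, 1.12 in the photon library and 2.11 in the control. Against remaining barcodes of like depth these ratios were 0.649, 0.802 and 1.34. The S phase list had a ratio of 0.931 in the photon library and 1.40 in the control. The NF-kB chemokine list stood at 0.729 in the proton library, 0.869 in the photon library and 1.35 in the control, and most of its UMIs were those of Lcn2. The acute phase and Aox3 list stood at 0.564 in the proton library, 1.10 in the photon library and 0.818 in the control. The small heat shock list stood at 1.21 in the proton library, 1.17 in the photon library and 0.943 in the control, with Cryab higher in all 3. The granular tubule list stood at 2.28 in the photon library and at 0 in the control, where no UMI of the list was found in the 149 barcodes.

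Barcodes outside the filters on gene number and mitochondrial share also met the UMI rule. They were 10 of 569 in the proton library, 8 of 885 in the photon library and 2 of 1047 in the control.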

How the results depend on the processing

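Against the rest, 1184 genes passed (573 higher, 611 lower). The counts fell to 628 (290 and 338) with DESeq2's Wald test, 484 (243 and 241) against remaining barcodes of like depth, 559 (225 and 334) at a rule of 5 UMIs, 599 (242 and 357) for barcodes with both Msln and Sncg, and 248 (125 and 123) when the rule was applied to thinned counts. Leaving out 1 library gave 538 to 1138 genes (261 to 498 higher, 277 to 640 lower), with the lowest counts without the photon library. Without the replicate block, edgeR called 0 genes (0 higher and 0 lower), though 262 passed an unadjusted p of 0.05 (143 and 119); the pairing by library thus carries the test. Without the block Krt7, Krt8 and Krt18 still differed by 0.55, 1.11 and 0.88 (log2; adjusted p = 0.999 each). Krt19 depended on the setting. It stood at -0.036 without the photon library (leave-one-out range -0.036 to 0.22), at -0.14 against barcodes of like depth, and passed the threshold at 0.66 with a rule of 2 UMIs, 0.68 with 5 UMIs and 0.69 on thinned counts; the cause was not tested. The 25 genes named against the rest kept their direction in every alternative in which they were tested. Only 12 of them were tested with the rule on thinned counts, 15 at 5 UMIs and 16 for barcodes with both Msln and Sncg.

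The member share moved with the rule. In the proton, photon and control libraries it was 4.29%, 7.13% and 2.78% at 2 UMIs, 0.516%, 1.16% and 0.242% at 5 UMIs, 1.47%, 3.02% and 0.844% without the deepest 5%, and 0.806%, 1.35% and 0.385% after thinning to 2000 UMIs; Msln and Sncg alone gave 3.27% in the photon library. The order of the libraries was the same in each of these.

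Within these barcodes, photon against control gave 685 higher and 1087 lower genes at a mean of 10 CPM, 649 and 1075 at 5 UMIs and 746 and 1275 on thinned counts, against 341 and 583 as reported. At a mean of 10 CPM, 1782 genes were higher for proton against control and 2296 for proton against photon.

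For Msln-led against Sncg-led barcodes, all alternatives were chosen after seeing the data. Leaving out 1 library gave 122 to 245 genes (67 to 120 and 55 to 125, lowest without the photon library; 81 higher in Sncg-led without the control), and no replicate block 0 genes (0 and 0; 119 at an unadjusted p of 0.05). The Mki67 and Gas6 calls were lost without the photon library, Mob3b without the photon or the control library and Smarca2 without the proton library. Shares, intervals and 0 counts are limited by the 149 control barcodes, whose summed depth of 824648 UMIs makes 1 UMI about as large as the lowest levels given.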
